A study of Xenopus laevis with 9 samples.

Results

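A morpholino that targets ADAM13, a metalloprotease, was compared with a control morpholino in Xenopus laevis embryos, by the RNA of their cranial neural crest explants. The groups are named MO13 (ADAM13 morpholino) and CMO (control morpholino). A morpholino is an antisense oligonucleotide that blocks translation or splicing of its target RNA. The comparison rests on 3 MO13 arrays and 3 CMO arrays out of 9 Affymetrix arrays in the series. Per the series text, each number from 1 to 3 stands for an independent experiment that holds an array of every group. MO13 was therefore set against CMO within each experiment. Every embryo of both groups received 10 ng of morpholino at the 1-cell stage and was kept at 15 °C. Explants were dissected at stage 15 to 17 and extracted at once, and the sample source is given as stage 17. The other group of the series, MO13_C13, carried the same ADAM13 morpholino plus an injected mRNA for a fusion of GFP and the cytoplasmic domain of ADAM13. Its arrays served to estimate the spread and are otherwise given only beside MO13 and CMO. Where 1 array was left out, they also entered the estimated difference. The labels state no strain, and they do not say how many embryos gave the explants of an array. All 15491 probe sets were tested. The description centres on the 6732 probe sets (43.5%) whose mean over the 6 arrays was 6 or more on the log2 intensity scale.

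ADAM13, now named adam33 in this species, is a membrane-anchored protease of the disintegrin and metalloprotease family. Cranial neural crest cells leave the edge of the neural plate, migrate in streams into the pharyngeal arches and form much of the facial cartilage. In Xenopus, ADAM13 is known for cutting cell-surface proteins such as cadherin-11 during this migration, and its cytoplasmic domain is known to reach the nucleus and to raise expression of the protease gene capn8. Xenopus laevis is allotetraploid, and most of its genes exist as a long (.L) and a short (.S) copy on different chromosomes.

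The 6 arrays had similar overall signal, with medians from 4.88 to 5.07, and arrays of one group correlated across probe sets at 0.979 to 0.990. Of the crest markers, 9 of 11 measured genes had a mean of 6 or more, among them tfap2a.L, snai2.L, foxd3.L and sox10.L. The same held for 7 of 21 neural plate genes, led by otx2.L with a mean of 10.35, and for 13 of 24 epidermal genes, led by has1.S with 9.92. Of all 7531 measured genes, each by its brightest probe set, 3916 reached 6. These counts alone therefore do not show how much RNA came from neighbouring tissues. Of the mesoderm and muscle markers 1 of 14 reached 6, of notochord markers 1 of 7, of endoderm markers 2 of 10, of blood markers 1 of 9 and of cement and hatching gland markers 0 of 6. The mean level over the neural plate markers was higher in MO13 by 0.01, 0.37 and 0.24 (log2) in experiments 1, 2 and 3, and ranged from 4.77 to 5.04 in CMO and from 5.05 to 5.20 in MO13. The mean over the crest markers differed by -0.02, -0.39 and -0.03, and these values include the dim probe set of cdh11.S, with 2.79 in CMO and 2.43 in MO13 and differences of 1.84, -2.42 and -0.49. Over the 9 crest markers with a mean of 6 or more, a choice made after seeing the data, the mean differed by -0.19, -0.23 and 0.08, and ranged from 9.01 to 9.16 in CMO and from 8.78 to 9.23 in MO13. With the same restriction the neural plate mean differed by 0.04, 0.35 and 0.09. The mean over all epidermal markers differed by 0.07, 0.13 and -0.12, and over the brighter ones by 0.05, 0.06 and -0.17. The part of these shifts in the results below was not tested. The deposited values are from whole explants, so a lower value from fewer cells of a type and one from less RNA per cell cannot be told apart.

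The targeted gene gives no check of the knockdown. The adam33.L probe set differed by 1.35, -0.72 and 1.47 in the 3 experiments, and adam33.S differed by -0.11, -0.06 and -0.22, neither passing the test (limma adjusted p = 0.433 and 0.596). Both are dim, with means over the 6 arrays of 3.99 and 1.50. A morpholino acts on the RNA it binds without needing to lower its amount. Of the capn8 probe sets, capn8.3.L was lower by -0.33, -2.20 and -1.48 and capn8.1.L by -0.45, -0.61 and -0.77, and neither passed with experiment as a block (limma adjusted p = 0.0872 and 0.132). Their means were 7.40 and 4.07, so capn8.1.L also lies under the limit of 6.

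Knockdown explants differed from their controls in a small share of probe sets. In limma with experiment as a block, 91 of the 6732 brighter probe sets passed an adjusted p of 0.05 (Benjamini-Hochberg over all 15491), which is 1.35%. Of these, 37 were higher and 54 lower in MO13. Over the whole array 179 passed, or 1.16%, with 61 higher and 118 lower. Before adjustment, 1334 brighter probe sets and 2546 in all had a p under 0.05. The called changes among brighter probe sets ran from 0.54 to 2.05 in size, with a median standard error of 0.14 over all brighter probe sets. Of the 37 higher ones 16 changed by 1 or more, and of the 54 lower ones 23 did. A mean of 8 or more was held by 22 of the 54 lower calls and by 8 of the 37 higher ones. The share of all brighter probe sets at that level was not counted. Whether the contrast holds under another scaling of the arrays was not tested. All 91 moved the same way in 3 of 3 experiments, which follows in part from their choice by a test on the same arrays.

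These calls depend on how the 9 arrays are used. Without the block 5 brighter probe sets and 15 in all passed, and with only the 6 arrays limma called 0, with or without the block. With 6 arrays and the block, 2 residual degrees of freedom remain, and 1155 brighter probe sets had an unadjusted p under 0.05 (441 without the block). Leaving out MO13 replicate 1 left 42 brighter calls and MO13 replicate 3 left 22. Leaving out MO13 replicate 2 left 1, and CMO replicates 1, 2 and 3 left 7, 4 and 7. With experiment 1, 2 or 3 left out whole, limma called 0 brighter probe sets, with 1241, 687 and 1087 at an unadjusted p under 0.05. Centring the arrays on their medians gave 49 higher and 40 lower brighter calls (55.1% higher in place of 40.7%), and 90 and 91 in all (49.7% in place of 34.1%). Repeating quantile normalization gave 39 and 48, and 82 and 93 in all (46.9% higher).

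Sign and size in the separate experiments give a view that needs no model. Of the 6732 brighter probe sets, 2767 (41.1%) moved the same way in 3 of 3 experiments, 1587 higher and 1180 lower, and 3965 were mixed or at 0. That split was 2215 higher and 873 lower after centring (71.7% higher in place of 57.4%) and 1513 and 1311 after quantile normalization. A difference of 0.5 or more in each experiment was reached by 154 probe sets (2.29%), 55 higher and 99 lower, and 86 of the 154 were among the called. After centring this split became 74 higher and 77 lower. With 0.3 or more in each there were 502, and with 1 or more 25, of which 9 were higher and 16 lower. Probe sets just inside the mean of 6 (6 to 6.1, 107 probe sets) had a median size of difference of 0.207, and those just outside (5.9 to 6, 110 probe sets) 0.242.

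The 3 experiments resembled each other to unequal degrees. Across the brighter probe sets, the MO13 minus CMO differences of experiments 2 and 3 had r = 0.50, those of experiments 1 and 2 r = 0.37, and those of experiments 1 and 3 r = 0.29. These values describe 6732 probe sets that are not independent and share arrays within an experiment. The median difference was -0.01, 0.07 and 0.02, and the SD over probe sets was 0.44, 0.40 and 0.36.

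**Figure D1:**
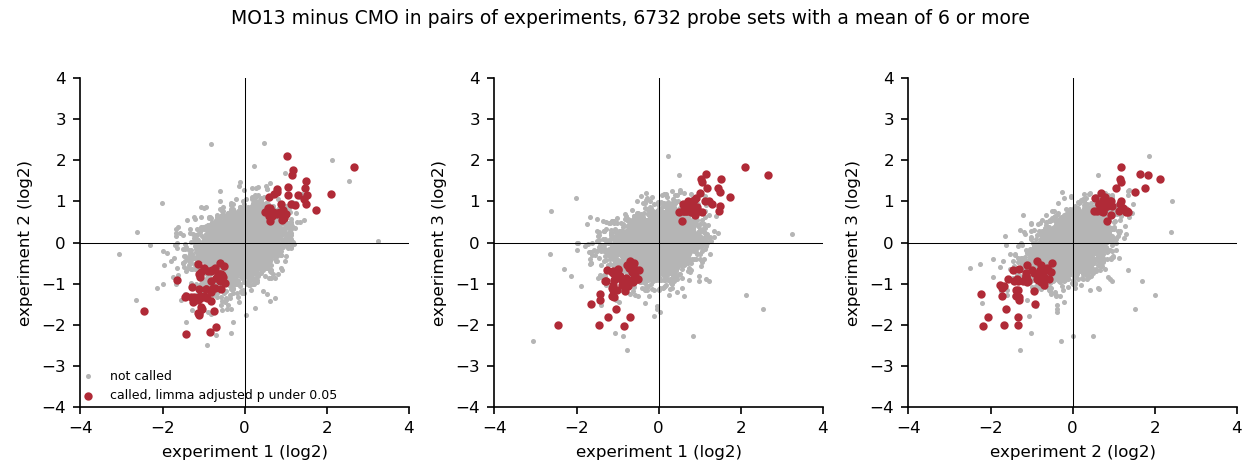
Differences MO13 minus CMO (log2) of the 6732 probe sets with a mean of 6 or more, plotted for each pair of experiments, with the 91 called probe sets in red and the others in grey. Called probe sets lie at the lower left and upper right of every panel, and the cloud is most elongated between experiments 2 and 3 (r = 0.50).

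The leading rises were those of riok3.S, dusp18.L and map2k1.L. Some leading genes reached the mean of 6 only through the group where they were higher. The CMO mean was 5.37 in riok3.S, 5.21 in dusp18.L, 5.83 in sec23ip.S, 5.97 in nxf1.S, 5.48 in ppp2r1a.L and 5.86 in ap3s1.S. Among the falls, the MO13 mean was 5.73 in nupr1.L, 5.27 in sp2.L, 5.31 in mios.S and 5.94 in ndufs4.S. The probe set of riok3.S, an atypical protein kinase of the RIO family whose name is less certain here, read 5.81, 4.96 and 5.35 in CMO and 8.48, 6.79 and 6.99 in MO13 of experiments 1, 2 and 3. All 3 MO13 arrays lay above all 3 CMO arrays, and the gene was 4.13-fold higher (log2 2.05, SE 0.22, limma adjusted p = 0.0137), the largest rise of the named genes. The dual-specificity phosphatase gene dusp18.L read 5.03, 5.65 and 4.96 in CMO and 7.14, 6.84 and 6.80 in MO13. It rose 3.28-fold (log2 1.71, SE 0.20, limma adjusted p = 0.0177), again without overlap, and also passed without the block (0.0261). For map2k1.L, which encodes the kinase MEK1 that activates ERK, the CMO arrays read 7.11, 5.76 and 5.84 and the MO13 arrays 8.15, 7.88 and 7.40. CMO of experiment 1 stood above the other controls, and the difference there was the smallest of the 3 (1.04, against 2.12 and 1.56). The average was 1.57 (SE 0.20, 2.98-fold, limma adjusted p = 0.0213). The scaffold subunit gene of protein phosphatase 2A, ppp2r1a.L, rose by 1.21 (SE 0.19, limma adjusted p = 0.0364). The prenylated tyrosine phosphatase gene ptp4a2.S rose by 1.05 (SE 0.12, limma adjusted p = 0.0177), with 1.23, 0.92 and 1.00 in the experiments.

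Other leading rises were single genes of several processes. The main export receptor of mRNA, nxf1.S, read 6.09, 5.66 and 6.15 in CMO and 7.58, 7.17 and 7.37 in MO13. Its difference was nearly the same in each experiment (1.49, 1.51 and 1.22), with an average of 1.41 (SE 0.11, 2.65-fold, limma adjusted p = 0.00939). The gene gtf3a.L, for the transcription factor TFIIIA that starts 5S ribosomal RNA synthesis, rose 2.35-fold (log2 1.23, SE 0.12, limma adjusted p = 0.0114). For sec23ip.S, whose product binds the COPII coat at exit sites of the endoplasmic reticulum, levels were 6.44, 5.79 and 5.25 in CMO and 7.60, 7.44 and 6.93 in MO13. The groups did not overlap although the controls spread over more than 1 unit, and the rise was 2.82-fold (log2 1.50, SE 0.14, limma adjusted p = 0.0108). The oligosaccharyltransferase subunit gene rpn2.S read 8.51, 8.44 and 8.47 in CMO and 9.81, 9.59 and 9.41 in MO13. Its controls lay within 0.1 of each other, and it rose 2.19-fold (log2 1.13, SE 0.12, limma adjusted p = 0.0139, and 0.0198 without the block).

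The rises given next lay between 0.85 and 1.19. The sphingolipid synthesis gene kdsr.L rose by 1.11 (limma adjusted p = 0.0236), the ESCRT-III gene chmp5.S, which acts in sorting into multivesicular endosomes, by 1.03 (0.0139), and the AP-3 adaptor gene ap3s1.S by 0.97 (0.0359). The cargo receptor gene tmed5.L rose by 0.85 (limma adjusted p = 0.0356), with 0.92, 0.54 and 1.08 in the experiments. The mitotic kinesin gene kif20b.S rose by 1.19 (limma adjusted p = 0.0211), and its 3 MO13 arrays, 7.90, 8.31 and 7.89, lay above its CMO arrays, 6.43, 6.98 and 7.11. The glycogenin gene gyg1.S, which primes glycogen synthesis, differed most between experiments, with 8.20, 5.13 and 6.95 in CMO and 8.91, 6.31 and 7.96 in MO13. Its groups overlapped, yet within experiments it was higher by 0.71, 1.18 and 1.01 (limma adjusted p = 0.0486 with the block and 0.949 without it). Of the 37 higher calls, 34 had groups that did not overlap, where 6.36% of all brighter probe sets had MO13 wholly above CMO. The calls were chosen by a test on the same arrays, so this gap follows in part from that choice.

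**Figure D2:**
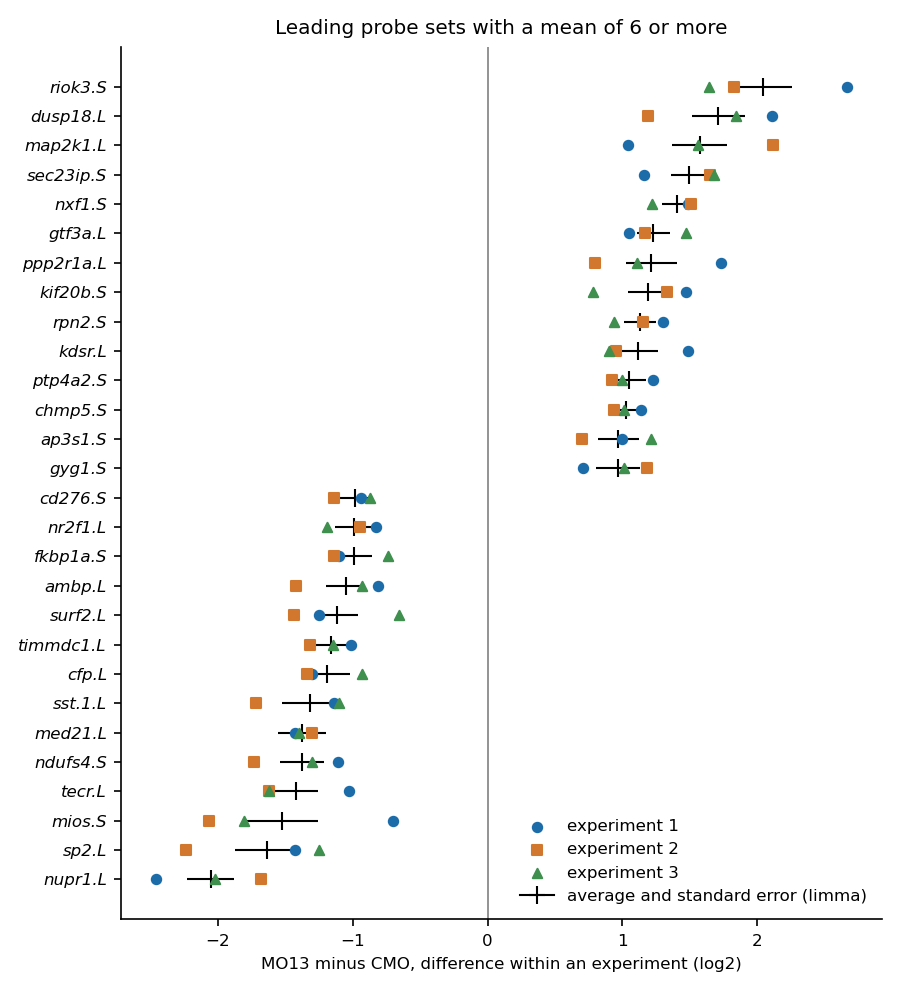
Differences MO13 minus CMO (log2) of the 14 genes with the largest rise and the 14 with the largest fall among called probe sets with a mean of 6 or more and an informative symbol. Points are the 3 experiments and black bars are limma's average with its standard error. Every point lies on the side of its average, which the choice of genes required, and riok3.S (2.05) and nupr1.L (-2.05) mark the ends.

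The largest fall was that of nupr1.L, which in mammals encodes a small nuclear protein induced by stress. It read 7.39, 6.53 and 9.44 in CMO and 4.93, 4.85 and 7.42 in MO13. Experiment 3 stood above the others in both groups, so the groups overlapped, while the paired differences of -2.46, -1.68 and -2.02 were alike. The average was -2.05 (SE 0.18, 4.15-fold lower, limma adjusted p = 0.00963), and without the block the adjusted p was 0.78. With 1 array or 1 experiment left out, nupr1.L passed in 6 of 9 fits, the most of the 28 leading genes. In the same fits sec23ip.S and nxf1.S passed in 4 and riok3.S in 3. The genes nr2f1.L, med21.L, sst.1.L, timmdc1.L, ppp2r1a.L, ptp4a2.S, ap3s1.S and gyg1.S passed in 0, and the other leading genes in 1 or 2. The genes sp2.L, med21.L and nr2f1.L, which act in transcription, fell as well, while the transcription genes gtf3a.L and zbtb2.L (0.73) were called higher. The Sp-family factor gene sp2.L read 6.82, 7.03 and 6.89 in CMO and 5.39, 4.79 and 5.64 in MO13, a fall by 1.64 (SE 0.23, limma adjusted p = 0.0261) with no overlap. The Mediator subunit gene med21.L read 9.44, 9.82 and 10.14 in CMO and 8.01, 8.52 and 8.74 in MO13, and its differences of -1.43, -1.30 and -1.40 were the most even of the leading genes named here. It fell 2.60-fold (log2 -1.38, SE 0.18, limma adjusted p = 0.0211). The gene nr2f1.L, for the nuclear receptor COUP-TFI, read 7.97, 7.74 and 7.81 in CMO and 7.14, 6.79 and 6.62 in MO13. It fell by 0.99 (SE 0.14, limma adjusted p = 0.0257), with no overlap.

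The next falls include genes of mitochondria and metabolism, among whose genes pdk4.S, dhodh.L, kdsr.L and gyg1.S were called higher. The complex I subunit gene ndufs4.S read 6.95, 7.26 and 7.74 in CMO and 5.84, 5.53 and 6.44 in MO13, and fell by 1.38 (SE 0.16, limma adjusted p = 0.0177). The complex I assembly gene timmdc1.L fell by 1.16 (SE 0.17, limma adjusted p = 0.0291), with 6.77, 6.86 and 7.90 in CMO and 5.76, 5.54 and 6.75 in MO13. The gene tecr.L, for the reductase of very long chain fatty acid elongation, fell by 1.42 (limma adjusted p = 0.0177). The amino acid sensing gene mios.S, a part of the GATOR complex upstream of TORC1, fell by 1.53, close to the threshold (limma adjusted p = 0.0497), with -0.70, -2.07 and -1.81 in the experiments. The proteasome lid gene psmd6.L read 10.62, 10.29 and 10.53 in CMO and 9.54, 9.45 and 9.61 in MO13. It fell 1.93-fold (log2 -0.95, SE 0.10, limma adjusted p = 0.0144), and its groups did not overlap. The prolyl isomerase gene fkbp1a.S fell by 0.99 (limma adjusted p = 0.0253), from 10.02, 10.17 and 10.41 to 8.92, 9.03 and 9.67.

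The other leading falls were sst.1.L, cfp.L, ambp.L, surf2.L and cd276.S. The peptide hormone gene sst.1.L (somatostatin) fell by 1.32 (limma adjusted p = 0.0376), the complement gene cfp.L (properdin) by 1.19 (0.0252), and ambp.L, the precursor gene of bikunin, by 1.05 (0.0245). In all 3 genes the groups overlapped, with experiment 3 above the others in both, as in cfp.L with 8.69, 9.63 and 10.08 in CMO and 7.39, 8.29 and 9.15 in MO13. The same overlap occurred in surf2.L, which fell by 1.12 (limma adjusted p = 0.0252). The immunoglobulin-type surface gene cd276.S (B7-H3) read 7.78, 7.57 and 7.71 in CMO and 6.84, 6.43 and 6.84 in MO13, a fall by 0.98 without overlap (limma adjusted p = 0.0252). Of the 54 lower calls, 41 had groups that did not overlap, where 4.68% of all brighter probe sets had MO13 wholly below CMO. Here too the gap follows in part from the choice of calls on the same arrays. Of these 28 leading genes, 2 passed without the block, dusp18.L and rpn2.S. In the authors' deposited table the riok3.S and ambp.L probe sets both carry a title of weak similarity to complement C1q, and fkbp1a.S that of another FK506 binding protein, so the names of these 3 probe sets are less certain.

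**Figure D3:**
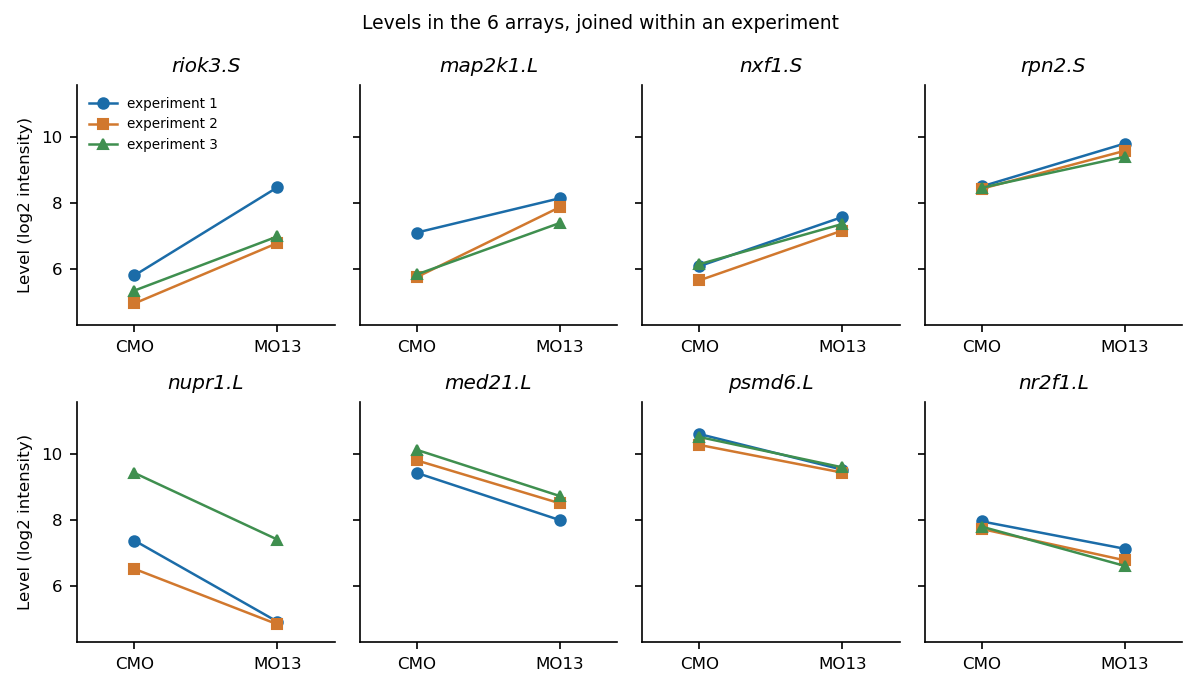
Levels (log2 intensity) of 8 called genes in the 3 CMO and 3 MO13 arrays, joined within an experiment. The lines of riok3.S, map2k1.L, nxf1.S and rpn2.S rise and those of nupr1.L, med21.L, psmd6.L and nr2f1.L fall in every experiment; nupr1.L starts higher in experiment 3 (9.44) than in experiments 1 and 2.

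Of the 91 called probe sets, 53 carry 1 informative gene symbol, 29 higher and 24 lower. The rule for naming genes does not cover the following ones, which were picked with their values in view. The pyruvate dehydrogenase kinase gene pdk4.S rose by 0.95 (limma adjusted p = 0.0450), with 0.80, 1.31 and 0.75 in the experiments. The pyrimidine synthesis gene dhodh.L rose by 0.71 (limma adjusted p = 0.0486), and the tyrosine phosphatase gene ptpn2.L by 0.65 (0.0414). The ubiquitin ligase gene arih2.L rose by 0.74 (limma adjusted p = 0.0211), with 0.70, 0.74 and 0.78, and the RNA polymerase II phosphatase gene ssu72.L by 0.77 (0.0330). On the lower side, snapc5.L, a subunit of the complex that starts small nuclear RNA transcription, fell by 0.98 (limma adjusted p = 0.0348). The DNA- and RNA-binding gene purb.S fell by 0.86 (limma adjusted p = 0.0328), and the phospholipid remodelling gene lpcat3.L by 0.82 (0.0397). The lpcat3.L probe set reached the mean of 6 only through CMO, with a mean of 5.75 in MO13. The mitochondrial carrier gene sfxn2.S fell by 0.72 (limma adjusted p = 0.0252), and the peroxisomal oxidase gene hao2.L by 0.65 (0.0486). Other copies of these genes often moved little or the other way. The brighter arih2.S stood at -0.35, -0.02 and -0.21, and the dim pdk4.L at -0.54 on average. The average was -0.04 in lpcat3.S, 0.28 in ptpn2.S and -0.11 in the dim hao2.S.

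The MO13_C13 arrays carry the same morpholino, with the cytoplasmic domain added. Of the 91 called probe sets, 0 differed between MO13_C13 and MO13 (limma, lowest adjusted p = 0.721), and 1 of all 15491 probe sets did. That one was adam33.L, part of which the injected mRNA carries, with a mean of 10.07 in MO13_C13 and 4.34 in MO13 (limma adjusted p = 0.0146). Over the 91, the size of the difference had a median of 0.15 and ran from 0.00 to 0.74. For riok3.S the MO13_C13 mean was 7.29 beside 7.42 in MO13 and 5.37 in CMO, and for rpn2.S it was 9.49 beside 9.60 and 8.47. For nupr1.L it was 6.32 beside 5.73 and 7.79. Against CMO, MO13_C13 passed in these 3 genes (limma adjusted p = 0.0120, 0.0144 and 0.0148). It did not pass in sst.1.L and syvn1.L (limma adjusted p = 0.217 and 0.141), and how many of the 91 passed was not counted. A p that misses the threshold does not show that the groups were alike. The comparisons of MO13 with CMO and with MO13_C13 use the same MO13 arrays, and those against CMO use the same CMO arrays.

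Probe sets of one gene often, but not always, gave the same direction. Among brighter probe sets, 533 genes had more than 1, forming 979 pairs. In 622 pairs (63.5%, 95% Wilson interval 60.5% to 66.5%) both average differences had the same sign, and the differences correlated at r = 0.36 across pairs. The same-sign share among pairs of unrelated probe sets was not counted. Pairs of one gene are not independent, since a gene with several probe sets enters more than once and probe sets can share transcript sequence. Where the brighter probe set differed by 0.5 or more, 33 of 45 pairs had the same sign (73.3%, 59.0% to 84.0%). Both members moved the same way in 3 of 3 experiments in 146 pairs, and in opposite directions in 46. In 306 genes (57.4%) all brighter probe sets shared 1 sign. The median gap between the members of a pair was 0.17, near the median standard error of 0.14 of a single difference.

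Called genes could rarely be checked by a further probe set. Of the 53 called probe sets with an informative symbol, 40 had no other brighter probe set of the same gene or of its copy. For 4 there was a further brighter probe set of the same gene, of which 3 had the same sign and 0 were called by limma. The second gyg1.S probe set was higher by 0.77 (0.27, 1.10 and 0.95) beside 0.97, and the second zbtb2.L probe set by 0.34 beside 0.73. The exception was hnrnpu.S, whose product packages nuclear RNA. One of its probe sets fell by 0.79 (limma adjusted p = 0.0392), while its others stood at 0.08, 0.22 and -0.28 and the probe set of hnrnpu.L at -0.02. A second probe set of nxf1.S, with a mean of 5.32, was higher by 0.17 (0.01, 0.06 and 0.44), against 1.41 in the called one. By contrast, a second sfxn2.S probe set with a mean of 5.29 fell by 1.12 (limma adjusted p = 0.0448), beside 0.72 in the brighter one. Of the dim probe sets of ambp.L, those with means of 5.66 and 5.80 stood at 0.48 and -0.64, neither called, beside -1.05 in the called one. Of the probe sets that moved by 0.5 or more in each experiment, 12 had a further brighter probe set of the same gene, and in 9 the brightest of these had the same sign, 6 of them in 3 of 3 experiments. Among the exceptions nup98l.S was lower by -0.78 in one and higher by 0.52 in another, and rnd1.L stood at -0.86 and 0.20, none of them called.

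Some genes moved alike in every probe set measured at a mean of 6 or more, by 0.5 or more on average and in 3 of 3 experiments. Higher were riok3 (0.71 in .L and 2.05 in .S), syvn1, the ubiquitin ligase of endoplasmic reticulum protein disposal (0.82 in .L and 0.66 in .S), and golph3, a Golgi membrane protein (0.61 in .L and 0.52 in .S). The small GTPase gene rap2a.S was higher by 0.65 and 0.76 in its probe sets, the pseudophosphatase gene styx.L by 0.67 and 0.51, the polarity gene pard6g.S by 0.54 and 0.51, and smim14.S by 0.51 and 0.81. Lower were dbi, an acyl-CoA binding protein (-0.85 in .L and -0.92 in .S), pqbp1, a polyglutamine binding protein tied to splicing (-0.63 in .L and -0.62 in .S), and the ETS repressor gene erf.S (-0.50 and -0.71). Of these, limma called riok3.S, syvn1.L (adjusted p = 0.0211) and a smim14.S probe set (0.0494). For dbi.L and dbi.S the limma adjusted p was 0.0812 and 0.157, and for pqbp1.L and pqbp1.S 0.0957 and 0.233. Over all uncalled probe sets of these genes it ran from 0.0632 in syvn1.S to 0.355 in golph3.S. The paired probe sets of styx.L, pard6g.S, smim14.S and erf.S carry nearly the same identifier and may cover the same transcript sequence. The riok3.S probe set, whose name is less certain, reached the mean of 6 only through MO13, with a mean of 5.37 in CMO. Those of erf.S reached it only through CMO, with means of 5.94 and 5.69 in MO13.

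Long and short copies agreed to about the same degree. In 475 copy pairs with both at a mean of 6 or more, 294 had the same sign (61.9%, 95% Wilson interval 57.4% to 66.2%), with r = 0.30 across pairs. Within the experiments r was 0.30, 0.39 and 0.23. A probe set can bind RNA of both copies, so copies are not independent either, and the share among unrelated genes was not counted. Both copies moved the same way in 3 of 3 experiments in 61 pairs, 43 higher and 18 lower, and oppositely in 15. An average of 0.5 or more in both copies was reached by 6 pairs of the same sign and by 0 of opposite sign. These were dbi, golph3, pqbp1, riok3, syvn1 and the keratin gene krt12.4. The riok3 pair rests on the riok3.S probe set, whose name is less certain. In krt12.4 the sign turned between experiments, with 2.54, 1.51 and -1.61 in .L and 2.12, 2.01 and -1.29 in .S, so the copies moved together within each experiment while the experiments differed.

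Called genes were also set beside their other copy. In 9 copy pairs 1 copy was called and in 0 pairs both were by limma. Of 11 called probe sets with a brighter probe set of the other copy, 8 had a partner of the same sign, 4 in 3 of 3 experiments. The partner's difference had a median of 0.106 times that of the called copy, and in 1 of the 11 it reached 0.5 times the called one. Since the called copy was chosen for passing the threshold, a smaller partner follows in part from that choice and is given as a description. For psmd6 the .S copy stood at -0.10 (0.17, -0.15 and -0.32) beside -0.95 in .L. A further called probe set carries nearly the same identifier as that of psmd6.L but no single gene symbol. It stood at -0.78 (-0.80, -0.67 and -0.87, limma adjusted p = 0.0276). For fkbp1a the .L copy stood at -0.24 beside -0.99 in .S, and for snapc5 the .S copy at 0.04 beside -0.98 in .L. Whether the copies differ from each other was not tested. The clearest opposition was in wdr18, a ribosomal RNA processing gene. Its .L copy read 9.18, 8.72 and 9.05 in CMO and 8.20, 8.11 and 8.38 in MO13, a fall by 0.75 (limma adjusted p = 0.0306). Its .S copy read 8.27, 8.14 and 7.81 in CMO and 8.68, 8.58 and 8.35 in MO13, higher by 0.46 in 3 of 3 experiments (limma adjusted p = 0.133). The protease inhibitor gene serpine2 also had opposite copies, at -0.40 in .L and 0.38 in .S, neither called (limma adjusted p = 0.216 and 0.167).

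**Figure D4:**
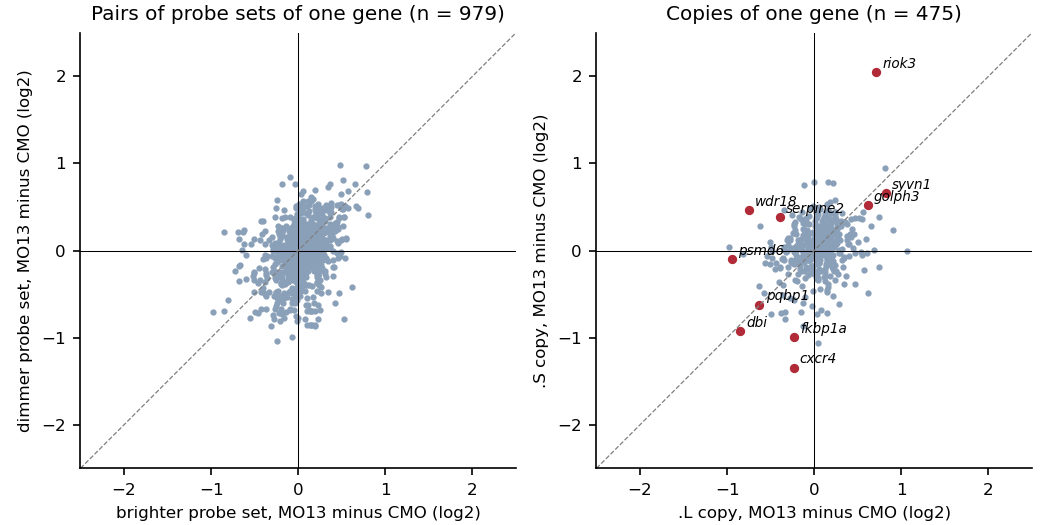
Differences MO13 minus CMO (log2) of 979 pairs of probe sets of one gene, the brighter one on the x axis (left), and of the .L and .S copies of 475 genes (right); red points mark genes named in the text and dashed lines mark equality. Both clouds lean along the diagonal (r = 0.36 and 0.30), and wdr18 and serpine2 lie where the .L copy is lower and the .S copy higher.

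Gene lists were read against all genes, each by its brightest probe set. Of 3916 genes with a mean of 6 or more, 26 (0.664%) were called higher and 25 (0.638%) lower, 928 (23.7%) were higher and 633 (16.2%) lower in 3 of 3 experiments, and the median difference was 0.03. With no adjustment, limma gave a p under 0.05 to 397 higher and 322 lower genes. Of 40 measured cranial neural crest genes, 29 reached a mean of 6, of which 0 were called higher and 1 lower, nr2f1.L. That gene is not among the 11 measured crest markers described above, of which limma called 0. At an unadjusted p under 0.05 limma had 7 of the 29 genes, 2 higher and 5 lower. In 3 of 3 experiments 7 were higher and 9 lower (24.1% and 31.0%), and the median was -0.09. The cartilage regulator sox9.S was higher by 0.37, 0.23 and 0.68 and the chemokine receptor cxcr4.S lower by -0.92, -2.49 and -0.62, neither called (limma adjusted p = 0.131 and 0.0987). Its other copy cxcr4.L, with a mean of 8.94 beside 8.64, stood at 0.30, -0.11 and -0.90 (limma adjusted p = 0.725). The crest regulator foxd3.L was lower by -0.33, -0.68 and -0.18, and snai2.L stood at 0.00 on average, neither called. Of 18 neural plate genes limma called 0 (6 at an unadjusted p under 0.05), with 5 higher and 2 lower in 3 of 3. Among these, fezf2.L was higher by 0.69, the adhesion gene ncam1.L by 0.54 and the tubulin gene tubb2b.S lower by -0.41. Of 21 epidermal genes limma called 0 (4 at an unadjusted p under 0.05), with 3 higher and 4 lower in 3 of 3 and a median of -0.20, and the desmosome gene dsp.S was lower by -0.62. Of 2 brighter mesoderm and muscle genes limma called 0 (1 at an unadjusted p under 0.05), and of 4 brighter notochord, endoderm and blood genes 0 (0 at that p). The dim muscle gene tnnt3.S, a fast troponin, passed with a level of 3.54 in CMO and 2.53 in MO13 (limma adjusted p = 0.0252).

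Adhesion, matrix and protease genes held no call by limma among brighter genes. Of 12 cadherin and catenin genes 4 were higher and 1 lower in 3 of 3, among them plakoglobin jup.S at 0.44 and the C-cadherin gene cdh3.S at 0.39. Of 11 integrin and extracellular matrix genes 1 was higher and 6 were lower in 3 of 3 (9.09% and 54.5%), with a median of -0.10. Of all genes 23.7% were higher and 16.2% lower. The lower matrix genes include the basement membrane gene nid2.L at -0.62 and the collagen gene col18a1.S at -0.40. The higher one was vcan.L, for the proteoglycan versican, at 0.59. After centring 1 matrix gene was higher and 4 were lower, with a median of -0.04. Repeated quantile normalization gave 1 and 6, with a median of -0.14. At an unadjusted p under 0.05 limma had 719 of all 3916 genes. These include 3 of 12 cadherin and catenin genes and 5 of 11 matrix genes. They also include 3 of 4 genes of the calpain list and 1 of 3 metalloproteinase genes. Of 4 calpains and calpastatin genes 1 was higher and 2 were lower in 3 of 3, with capn5.S at 0.41 and capn5.L at -0.25. Of 3 ADAM and matrix metalloproteinase genes 2 were lower in 3 of 3, mmp3.L at -0.37 and mmp14.L at -0.16.

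Of the signalling lists, the FGF and MAP kinase list held 2 calls, dusp18.L and map2k1.L, out of 21 genes, while its median was 0.02. Of all 3916 genes 26 (0.664%) were called higher and 25 (0.638%) lower, and no list was tested against them. The dusp18.L probe set reached the mean of 6 only through MO13, with a CMO mean of 5.21. The Wnt list (18 genes), the BMP and TGF-beta list (7), the Notch list (9) and the list of ephrins, semaphorins and their receptors (10) held 0 brighter calls by limma. At an unadjusted p under 0.05 limma had 719 of all 3916 genes, and 2, 1, 2 and 2 in these lists. In these lists tcf7l1.L, a factor that represses Wnt targets, was higher by 0.68 (0.33, 0.99 and 0.73). The hairy-type repressor gene hes4.L was lower by -0.50, the ephrin receptor epha2.L by -0.36 and the semaphorin receptor plxna1.L by -0.63, none called. Among 10 p53 response genes ccng1.L was called, rising by 0.75 (limma adjusted p = 0.0306) from 9.76, 10.05 and 10.00 to 10.44, 10.69 and 10.93. The damage response gene gadd45g.S was lower by -0.72 (limma adjusted p = 0.0706). The innate immunity list held 1 call, cd276.S, out of 15 genes.

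The largest lists covered cell machinery, and no list was tested against all genes. Of 88 cell cycle genes limma called 0 (unadjusted p under 0.05 in 13 higher and 2 lower ones), with 26 higher and 8 lower in 3 of 3 (29.5% and 9.09%, against 23.7% and 16.2% of all genes) and a median of 0.12. The cyclin gene ccna2.S was higher by 0.78 (0.48, 1.10 and 0.77, limma adjusted p = 0.0656), and the replication licensing genes mcm4.L by 0.56 and mcm7.S by 0.44. The median of the list was -0.01, 0.22 and 0.12 in experiments 1, 2 and 3. Of all 3916 genes, limma gave an unadjusted p under 0.05 to 397 higher and 322 lower ones, and called 26 (0.664%) higher and 25 (0.638%) lower. Of 77 genes of the secretory pathway and glycosylation 3 were called higher, sec23ip.S, rpn2.S and tmed5.L, and 0 lower, with 24 higher and 8 lower in 3 of 3 (31.2% and 10.4%) and a median of 0.09. Of 35 autophagy and lysosome genes 10 were higher and 2 lower in 3 of 3 (28.6% and 5.71%), with a median of 0.18 and experiment medians of 0.21, 0.23 and 0.08. The autophagosome gene atg5.L was called, rising by 0.88 (limma adjusted p = 0.0419) from 6.12, 6.04 and 5.82 to 6.98, 6.78 and 6.86. Of 118 splicing and mRNA export genes nxf1.S was called, and 31 were higher and 8 lower in 3 of 3 (26.3% and 6.78%), with a median of 0.04 beside 0.03 in all genes. After repeated quantile normalization 23 were higher and 16 lower, where all genes had 886 and 723. The exon junction gene rbm8a.L was lower by -0.51 (-0.41, -0.48 and -0.63) and hnrnph1.L by -0.61, neither called (limma adjusted p = 0.0653 and 0.0760). The called sec23ip.S, nxf1.S and atg5.L reached the mean of 6 only through MO13, with CMO means of 5.83, 5.97 and 5.99.

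The remaining lists held 1 call or 0. Of all 3916 genes 23.7% were higher and 16.2% lower in 3 of 3, with 0.664% called higher and 0.638% called lower. Of 71 respiratory chain genes 1 was called, ndufs4.S, with 17 higher and 9 lower in 3 of 3 (23.9% and 12.7%). The ndufs4.S probe set reached the mean of 6 only through CMO, with a mean of 5.94 in MO13. The copper chaperone gene cox17.L was lower by -0.57 and the cytochrome oxidase gene cox7c.L higher by 0.55, so members differed in direction. Of 97 ubiquitin and proteasome genes psmd6.L was called, with 24 higher and 12 lower in 3 of 3 (24.7% and 12.4%). Among 74 cytosolic ribosomal protein genes limma called 0 (1 at an unadjusted p under 0.05), with 12 higher and 7 lower in 3 of 3 (16.2% and 9.46%). That split turned with the scaling, to 41 higher and 2 lower after centring and 7 higher and 14 lower after repeated quantile normalization. All genes then had 1344 higher and 456 lower, and 886 and 723. The chaperone list (53 genes) had 13 higher and 12 lower in 3 of 3 (24.5% and 22.6%), with the endoplasmic reticulum chaperone hsp90b1.S at 0.54 and hspa4.S at -0.73. The chromatin list (42 genes) had 8 higher and 10 lower (19% and 23.8%). Its remodeller gene chd7.L, whose loss in humans disturbs crest derivatives, stood at -0.60, -0.32 and -0.05 in its 3 brighter probe sets. The chaperone and chromatin lists held 0 calls by limma. At an unadjusted p under 0.05 limma had 11 and 5 of their genes, and 719 of all 3916. Among the lists, the medians of the neural plate, p53, ribosomal protein, chromatin and innate immunity lists changed sign under centring or repeated quantile normalization. The cell cycle median stayed at 0.19 and 0.10, the autophagy median at 0.24 and 0.19 and the secretory median at 0.16 and 0.08, while the median of all genes moved to 0.10 and 0.01.

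**Figure D5:**
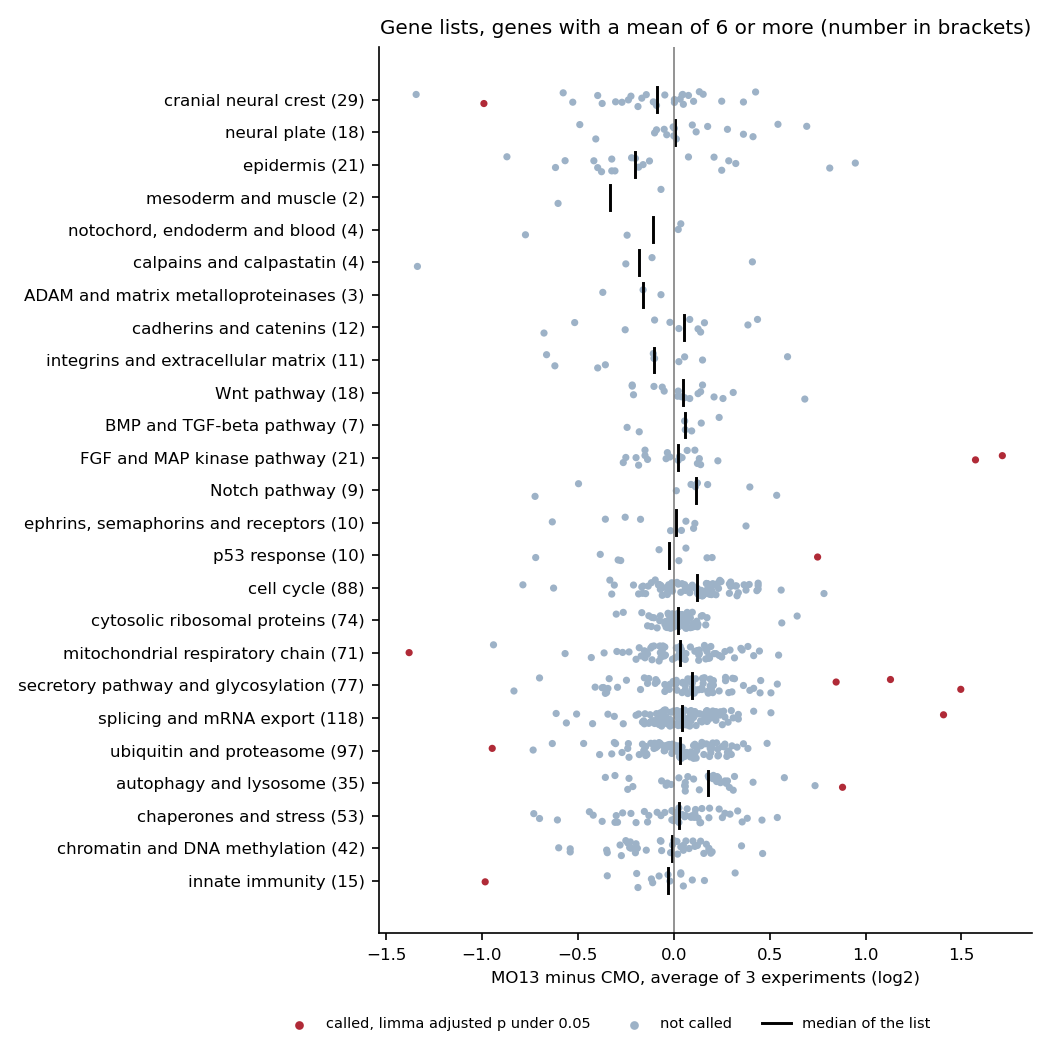
Differences MO13 minus CMO (log2, average of 3 experiments) of the genes with a mean of 6 or more in 25 lists, each gene by its brightest probe set; black bars are list medians and red points are genes called by limma. Medians lie between -0.34 and 0.18, and of the 12 red points 3 belong to the secretory list, 2 to the FGF and MAP kinase list and 1 to each other list that holds any.

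The authors' deposited table of probe sets affected by the loss of ADAM13 holds 6121 probe sets, 39.5% of all, under a heading of p below 0.01. Its array values equal the deposited value table, with a largest difference of 0. Membership followed direction alone. All 6121 probe sets of the authors' deposited table had no opposite directions among the 3 experiments, and 0 such probe sets were missing from it. Of them, 5645 moved the same way in 3 of 3 experiments and 476 had a difference of 0 in at least 1. In the authors' deposited table, average changes of 2007 probe sets were under 0.2 in size and those of 197 were 1 or more, with a median size of 0.28. The blocked limma fit gave 1035 of its probe sets an unadjusted p under 0.01, and the fit without the block 346. The 179 calls were all in the authors' deposited table, which is 100% of the calls and 2.92% of that table. All 179 moved the same way in 3 of 3 experiments, so their presence follows from how membership was set.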

How the data were processed

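The authors deposited log2 intensities, 1 per probe set, made with GCRMA in Expression Console of Affymetrix, per the submitters' processing notes. RNA was amplified and labelled with biotin before hybridisation, per the labels' protocols. The sources used here do not give versions or the test behind the authors' deposited table of log2 values. Detection calls were not used, so low expression and background cannot be separated. The number of arrays limits the precision.

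limma 3.58.1 (R 4.3.3) was fitted to all 9 arrays with group and experiment (4 residual degrees of freedom), two-sided. The fit was also run on simulated arrays with known changes and independent noise of the fitted residual SD. Such arrays meet the assumptions of the fit, so this run is no check of the calls. The series text ties the numbers to 3 experiments, and deviations of same-numbered MO13 and CMO arrays correlated at 0.58 to 0.73. GEO's annotation gave 9304 probe sets 1 symbol, 195 several and 5992 none. RefSeq matched 9227 by gene ID and updated 2.

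Named genes were the 14 largest called changes in each direction (mean of 6 or more, informative symbol), genes whose probe sets all moved alike by 0.5, opposite copies, adam33, capn8 and up to 3 members of each of 27 lists by unadjusted p. The result of 1 list is not reported here. Genes, lists and rules were chosen with earlier results of these data known. Alternatives were the block, the arrays fitted or left out, limma settings, scaling, minimum mean and step size.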

Additional observations from a re-analysis of the deposited data

How the results depend on the processing

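Against 179 called probe sets in all and 91 brighter ones, the fit without the replicate block called 15 and 5, the 6 arrays alone with the block 0 and 0, and the 6 arrays alone without the block 0 and 0 (limma; unadjusted p under 0.05 in 2321 and 1155 with the block, 860 and 441 without). An intensity trend gave 251 and 146, and testing only probe sets with a mean of 6 or more gave 143. A random block gave 144 and 83, and robust estimation 157 and 82. With 1 array or 1 experiment left out, counts ran from 0 to 95 in all and from 0 to 42 among brighter probe sets. The highest came without MO13 replicate 1, and without experiment 3 limma called 7 in all. With 1 array left out, the MO13_C13 array of the same experiment also entered the estimated difference between MO13 and CMO. The count of 154 that moved by 0.5 or more in each experiment was 99 at a mean of 7 or more, 502 with a step of 0.3 and 25 with a step of 1. Same-sign shares of 63.5% and 61.9% rose to 68.5% and 67.6% after centring. Centring also moved the median difference of brighter probe sets from 0.03 to 0.09, and the part of that shift in the rise was not tested. Without 1 experiment the shares ranged from 59.0% to 65.4% and from 55.2% to 63.2%. Over 112 named probe sets and 18 settings, 2013 comparisons gave 0 reversed directions, 394 lost calls and 21 gained ones. The causes of lost and gained calls were not tested. Nearly all of these probe sets moved the same way in 3 of 3 experiments, which most were chosen for. Several settings also leave the average difference unchanged. The 0 reversed directions were therefore largely fixed in advance. Of the 28 leading genes, 28 passed with a trend, 26 with robust estimation, 27 after centring, 26 after quantile normalization and 21 with a random block. Signal near background limits the 8759 probe sets with a mean under 6, of which 88 were called.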
